A study of Mus musculus with 12 samples.

Results

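The 7 genes described here, Hmgcs1, Sqle, Idi1, Fdps, Cyp51, Insig1 and Srebf2, serve the synthesis of cholesterol and the sensing of its level in the cell. They were taken by name, and every probe of the array whose symbol is one of these names was a member. The table held such probes for 6 of the 7 genes, 14 probes of 46632 in all. No probe carries the symbol Hmgcs1 in the table used here, so the expression of this gene was not analysed here. Of the 14 probes, 11 were kept, because they were detected above background on at least 4 of 12 arrays, and these stand for 5 genes.

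The RNA came from cartilage of the femoral head of 21-day-old TS-4/5∆cat mice, cultured as explants. All mice, untreated ones included, carry in-frame deletions of the exons that encode the catalytic domains of ADAMTS-4 and ADAMTS-5, and cartilage of wildtype mice was not analysed here. Explants were left untreated, given IL-1α at 10 ng/mL, an inflammatory cytokine that drives cartilage breakdown, or given retinoic acid at 10 µM, a vitamin A derivative that acts through nuclear receptors, for 3 days. There were 4 arrays per treatment, 2 from the Donut line (batch 1) and 2 from the Gertrude line (batch 2), so that line and batch cannot be told apart. The study compared both treatments to find genes that answer retinoic acid but not IL-1α. The labels describe 4 hips in each well and serum before treatment, and the paper describes serum-free culture and unpooled mice, fewer for each treatment than the arrays here. Nothing ties an array to a mouse, so some arrays may share a mouse, and p-values measure the spread between arrays.

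Cells make cholesterol from acetyl-CoA through mevalonate, farnesyl diphosphate, squalene and lanosterol, or take it up in lipoproteins through receptors at the cell surface. The transcription factor SREBP2, encoded by Srebf2, is held in the endoplasmic reticulum by the INSIG proteins and the escort protein SCAP when membranes are rich in sterol. When sterol is low it is carried to the Golgi, cut by proteases encoded by Mbtps1 and Mbtps2, and switches on genes of synthesis and uptake, among them Insig1 and Srebf2 itself. Cartilage has no blood vessels, and chondrocytes can use their own synthesis and lipoproteins that diffuse through the matrix.

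Promoters are shown for the 3 tested members that have a RefSeq entry in the sequence table (build GRCm38.p6), because SREBP2 is known to act on promoters of these genes. Each runs 5′ to 3′ on the strand of the gene, from 250 bases before the annotated start to 50 bases after it. Capitals mark matches, on either strand, to TCACCNCA, a sterol regulatory element core in which 1 base is free, and to CACGTG, the E-box. The motifs were chosen with these sequences in view.

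Insig1, chr5:28071162-28071461, + strand: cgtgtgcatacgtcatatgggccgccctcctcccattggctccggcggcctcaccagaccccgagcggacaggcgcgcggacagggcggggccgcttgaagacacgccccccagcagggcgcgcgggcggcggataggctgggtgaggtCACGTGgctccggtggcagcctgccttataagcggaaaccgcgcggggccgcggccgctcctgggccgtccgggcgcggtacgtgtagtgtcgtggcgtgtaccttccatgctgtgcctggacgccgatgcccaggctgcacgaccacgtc

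Cyp51, chr5:4104648-4104947, − strand: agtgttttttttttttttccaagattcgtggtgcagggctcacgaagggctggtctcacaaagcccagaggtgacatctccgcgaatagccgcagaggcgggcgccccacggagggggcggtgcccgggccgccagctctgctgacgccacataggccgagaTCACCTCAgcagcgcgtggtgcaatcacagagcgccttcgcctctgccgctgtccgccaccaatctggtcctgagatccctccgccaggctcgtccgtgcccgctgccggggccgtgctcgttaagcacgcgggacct

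Srebf2, chr15:82147019-82147318, + strand: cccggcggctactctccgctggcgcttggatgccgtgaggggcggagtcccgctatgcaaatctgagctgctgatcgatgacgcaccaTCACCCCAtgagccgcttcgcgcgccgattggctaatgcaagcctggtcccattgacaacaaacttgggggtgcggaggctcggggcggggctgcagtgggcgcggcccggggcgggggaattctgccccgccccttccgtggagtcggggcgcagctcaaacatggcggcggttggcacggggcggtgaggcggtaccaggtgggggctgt

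The Srebf2 window held TCACCCCA at position −162 from the annotated start, the Cyp51 window held TCACCTCA at −88, and the Insig1 window held CACGTG at −101. That Insig1 match overlaps a match to AGGTCA, a core motif of nuclear receptors, which lies at −105. The windows of the untested members Hmgcs1 and Idi1 are not shown. Hmgcs1 held TCACCCCA at −137, and Idi1 held neither TCACCNCA nor CACGTG. Of the 5 member windows, 3 held TCACCNCA and 1 held CACGTG. Of all 32851 RefSeq promoter windows of the same length, 4.42% held TCACCNCA, 1.56% held TCACCCCA, 7.15% held CACGTG and 16.3% held AGGTCA. These matches are a description of letters in the windows and say nothing of binding in the explants.

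Detected probes numbered between 13786 and 14965 on the arrays of batch 1 and between 16732 and 19485 on those of batch 2, where untreated replicate 2 had the highest number. Arrays of the same treatment and batch correlated at 0.983 to 0.995 over kept probes, and arrays that shared the treatment but not the batch at 0.868 to 0.902. All 4 genes listed as checks of retinoic acid rose with it, and 2 of 3 tested checks of IL-1α rose with IL-1α. Chondrocyte markers were present in the untreated explants but moved with treatment. Matn3 and Snorc were detected on 0 of 12 arrays, and Acan, Col2a1 and Sox9 on 12. Of 9 tested markers, 9 fell with retinoic acid and 7 with IL-1α, and the summed linear level of the list ran from 76546 to 92521 in untreated, 44979 to 61965 in IL-1α and 15223 to 21546 in retinoic acid arrays. Of 9 tested macrophage markers, 6 rose with retinoic acid, 2 rose and 5 fell with IL-1α, and the summed level ran from 6164 to 7513, 5088 to 8757 and 8813 to 9865 in the same order. Of 5 tested osteoblast markers 4 fell with each treatment, of 8 neutrophil markers 5 fell with retinoic acid over both batches and 0 passed with IL-1α, and of 6 endothelial markers 1 rose with retinoic acid and 3 fell with IL-1α. For comparison, 18.2% of all kept probes rose and 17.1% fell with retinoic acid, and 15.2% rose and 14.1% fell with IL-1α. The summed neutrophil level was lower with retinoic acid in batch 1 (5908 and 5965 against 14272 and 16899 in untreated arrays) and higher in batch 2 (15144 and 14248 against 11598 and 9754). In batch 2 the means of S100a8, S100a9 and Prtn3 were higher with retinoic acid, while those of Ngp, Camp, Mpo, Ela2 and Ltf were lower. In such bulk RNA, fewer cells of a type and less RNA per cell cannot be told apart, and the part that these shifts play in the results below was not tested.

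Retinoic acid was followed by higher mean signals of the kept member probes in both batches, though not every gene passed the threshold. By the brightest kept probe of each gene, 3 of 5 tested members rose against untreated (Fdps, Sqle and Insig1) and 0 fell, where over all 18200 kept probes 18.2% were called higher and 17.1% lower. The median change of the 5 members was 0.64 on the log2 scale, against 0.02 over all kept probes. Counted by probe, 7 of 11 rose, and the mean was above untreated in both batches for 11 of 11, as it was for 40.1% of all kept probes. With IL-1α 1 of 5 members rose (Srebf2) and 0 fell, where 15.2% of all kept probes were called higher and 14.1% lower, and the median change of the members was 0.22. Counted by probe, 4 of 11 rose with IL-1α and 0 fell. The IL-1α mean was above untreated in both batches for 5 of 11, as it was for 37.7% of all kept probes. The changes against untreated share the same untreated arrays in both comparisons. Calls are from limma at an adjusted p of 0.05. With no batch term in the model, 0 of 5 members passed in either comparison. For retinoic acid, only 1 member passed without either untreated array of batch 1, and only 1 without the filter on dim probes.

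Fdps encodes farnesyl diphosphate synthase, which makes the precursor of squalene and of the lipid anchors of many proteins. Its brightest probe (ILMN_1225730) read, on the log2 scale, 10.45 and 10.73 in the untreated arrays of batch 1 and 10.07 and 9.90 in those of batch 2. With retinoic acid the batch 1 arrays read 11.76 and 11.52, and the batch 2 arrays 10.88 and 11.00. With IL-1α the batch 1 arrays read 10.97 and 11.08, and the batch 2 arrays 9.93 and 10.05. All 4 retinoic acid arrays were above all 4 untreated arrays, while IL-1α arrays were above untreated arrays in batch 1 and among them in batch 2. Fdps rose with retinoic acid by 1.00 ± 0.13 (log2, SE, adjusted p = 7.256e-05), a 2.00-fold change, with 1.05 in batch 1 and 0.95 in batch 2. The exact permutation test of 4 against 4 arrays gave a two-sided p of 0.0286, the smallest that it can give. This test exchanges arrays freely between the batches and so does not respect the batches that the limma model holds. The change with IL-1α was 0.22 ± 0.13 (adjusted p = 0.2376). Retinoic acid was above IL-1α by 0.78 ± 0.13 (adjusted p = 0.0006046, two-sided exact permutation p = 0.1429), with 0.62 in batch 1 and 0.94 in batch 2. The dimmer probe (ILMN_1232741), between 5.14 and 6.37 over the 12 arrays, rose with retinoic acid by 0.71 (adjusted p = 0.0004119) and with IL-1α by 0.36 (adjusted p = 0.03771). Its IL-1α call was lost in 13 of 21 alternative settings, where the change was between 0.21 and 0.40.

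Idi1 encodes isopentenyl diphosphate isomerase, which supplies one of the 5-carbon units that Fdps joins. Its only probe (ILMN_2590923) was detected on 0 of 12 arrays, with detection p-values between 0.09 and 0.51, and was not tested.

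Sqle encodes squalene epoxidase, a rate-limiting enzyme of the sterol branch. Its brightest probe (ILMN_2737163) read 9.08 and 8.93 in untreated arrays of batch 1, against 9.49 and 9.63 in those of batch 2. With retinoic acid the batch 1 arrays read 9.76 and 9.74, and the batch 2 arrays 10.00 and 10.19. With IL-1α the batch 1 arrays read 9.79 and 9.87, and the batch 2 arrays 9.61 and 9.24. No untreated array reached the lowest retinoic acid array (exact permutation test, two-sided p = 0.0286). The IL-1α arrays were just above the retinoic acid arrays in batch 1 and overlapped the untreated arrays in batch 2. Sqle rose with retinoic acid by 0.64 ± 0.19 (adjusted p = 0.01647), with 0.74 in batch 1 and 0.54 in batch 2. The adjusted p of this call was 0.06363 without untreated replicate 1 of batch 1, 0.08212 without untreated replicate 2 of batch 1, 0.06538 without retinoic acid replicate 2 of batch 2 and 0.0898 without the filter on dim probes. The change with IL-1α was 0.34 ± 0.19 (adjusted p = 0.183).

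A second Sqle probe (ILMN_2600348) had a like pattern at a wider range, from 4.97 in an untreated to 8.09 in a retinoic acid array. It was detected on 11 of 12 arrays and not well above background on untreated replicate 1 of batch 1. It rose with retinoic acid by 1.09 ± 0.26 (adjusted p = 0.005702) and with IL-1α by 0.98 ± 0.26 (adjusted p = 0.014). The exact permutation test gave a two-sided p of 0.1714 for each of these rises. Without the filter on dim probes the retinoic acid call was lost (adjusted p = 0.06552). The IL-1α call was lost without either untreated array of batch 1 (adjusted p = 0.06667 and 0.05636), without IL-1α replicate 2 of batch 1 (adjusted p = 0.05674), with median scaling (adjusted p = 0.09501) and without the filter (adjusted p = 0.1084). The remaining Sqle probe (ILMN_2573600) was detected on 0 of 12 arrays.

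Cyp51 encodes lanosterol 14-alpha-demethylase, the first step that turns lanosterol towards cholesterol. Its brightest probe (ILMN_2428754) read 8.62 and 8.26 in untreated, 8.84 and 8.89 in IL-1α and 8.86 and 8.78 in retinoic acid arrays of batch 1. In batch 2 it read 9.11 and 9.54 in untreated, 9.08 and 9.20 in IL-1α and 9.59 and 9.81 in retinoic acid arrays. The retinoic acid arrays were above the untreated arrays within each batch, but over both batches the groups overlapped. The change with retinoic acid was 0.38 ± 0.15 (adjusted p = 0.06647) and was 0.38 in each batch. The second probe (ILMN_2688075), between 7.20 and 8.53 over the arrays, gave 0.55 ± 0.21 (adjusted p = 0.05781). Neither passed the threshold, although the first did in 5 of 21 alternative settings and the second in 9 of 21. With IL-1α the changes were 0.12 ± 0.15 (adjusted p = 0.5863) and 0.53 ± 0.21 (adjusted p = 0.07656).

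Insig1 encodes a membrane protein that retains SREBP in the endoplasmic reticulum and is itself a target of SREBP. Its brightest probe (ILMN_1245272) read 6.06 and 6.40 in untreated arrays of batch 1 and 7.84 and 7.24 in those of batch 2. With retinoic acid the batch 1 arrays read 7.53 and 7.68, and the batch 2 arrays 8.56 and 8.30. With IL-1α the batch 1 arrays read 7.21 and 7.02, and the batch 2 arrays 6.44 and 6.65. Retinoic acid arrays were thus the highest within each batch, and all of them were above all IL-1α arrays, whereas IL-1α arrays lay above the untreated arrays of batch 1 and below those of batch 2. Insig1 rose with retinoic acid by 1.13 ± 0.31 (adjusted p = 0.0112), a 2.19-fold change, with 1.37 in batch 1 and 0.89 in batch 2. Over both batches the retinoic acid and untreated arrays overlapped (two-sided exact permutation p = 0.0857). Against IL-1α Insig1 rose with retinoic acid by 1.19 ± 0.31 (adjusted p = 0.009621, two-sided exact permutation p = 0.0286). The change with IL-1α over both batches was −0.05 ± 0.31 (adjusted p = 0.9152), with 0.89 in batch 1 and −0.99 in batch 2.

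The rise with retinoic acid was not called without either untreated array of batch 1 (adjusted p = 0.05781 and 0.05512), and without the filter on dim probes the adjusted p was 0.1038 against untreated and 0.1028 against IL-1α. A second Insig1 probe (ILMN_2606693), detected on 11 of 12 arrays and not well above background on untreated replicate 1 of batch 1, read 5.16 and 5.52 in untreated arrays of batch 1 and between 7.30 and 8.65 in all 4 retinoic acid arrays. It rose with retinoic acid by 1.66 ± 0.32 against untreated (adjusted p = 0.001285, two-sided exact permutation p = 0.0857). Against IL-1α it rose with retinoic acid 2.15-fold (adjusted p = 0.01834, two-sided exact permutation p = 0.0286). The call against IL-1α was lost without IL-1α replicate 1 of batch 2 (adjusted p = 0.06616), without IL-1α replicate 2 of batch 2 (adjusted p = 0.07505), without retinoic acid replicate 2 of batch 2 (adjusted p = 0.05049) and without the filter (adjusted p = 0.1519). The remaining Insig1 probe (ILMN_2620965) was detected on 0 of 12 arrays.

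Srebf2 encodes SREBP2, the regulator of the pathway, and was the only tested member whose brightest probe rose with IL-1α. This probe (ILMN_1223598) read 9.05 and 9.35 in untreated, 9.83 and 9.82 in IL-1α and 9.44 and 9.31 in retinoic acid arrays of batch 1. In batch 2 it read 8.99 and 8.27 in untreated, 9.31 and 9.37 in IL-1α and 8.79 and 9.16 in retinoic acid arrays. The IL-1α arrays were the highest in both batches, and the retinoic acid arrays overlapped the untreated arrays. Srebf2 rose with IL-1α by 0.67 ± 0.16 (adjusted p = 0.007301, two-sided exact permutation p = 0.0571), with 0.62 in batch 1 and 0.71 in batch 2. The change with retinoic acid was 0.26 ± 0.16 (adjusted p = 0.2311), and retinoic acid against IL-1α gave −0.41 ± 0.16 (adjusted p = 0.0704).

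The 3 Srebf2 probes did not agree. ILMN_1234082, between 6.28 and 7.55, rose with both treatments, by 0.56 ± 0.11 with retinoic acid (adjusted p = 0.001514) and by 0.44 ± 0.11 with IL-1α (adjusted p = 0.01018). ILMN_2426208, between 6.85 and 7.96, passed in neither, with 0.32 for retinoic acid (adjusted p = 0.1737) and −0.03 for IL-1α (adjusted p = 0.9121). Which transcript parts the probes match was not analysed here.

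Directly between the treatments, 2 of 5 members (Fdps and Insig1) were higher after retinoic acid than after IL-1α and 0 were lower, where 15.2% of all kept probes were called higher and 15.8% lower. Groups of 4 arrays did not overlap over both batches for 2 of 5 members between retinoic acid and untreated (Fdps and Sqle), for 0 between IL-1α and untreated and for 1 between retinoic acid and IL-1α (Insig1). Over all kept probes the groups did not overlap for 16.9%, 13.5% and 17.7% in the same order.

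The effect of IL-1α on Sqle and Insig1 differed between the batches, while that of retinoic acid against untreated was not called different for any of the 11 probes. In a model with a term for each treatment in each batch, the effect in batch 2 minus that in batch 1 passed for 2 of 5 members by the brightest probe for IL-1α against untreated (Sqle and Insig1), and for 5 of 11 probes. For retinoic acid against IL-1α the counts were again 2 of 5 and 5 of 11, and for retinoic acid against untreated 0 of 5 and 0 of 11. Over all kept probes the shares called were 4.82%, 8.76% and 2.86% in that order. With 2 arrays in each treatment and batch, these tests rest on few arrays, and an exact test of 2 against 2 could not give a p below 0.3333.

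For Insig1 the IL-1α effect changed sign. It was 0.89 in batch 1 and −0.99 in batch 2 by the brightest probe, a difference of −1.88 (adjusted p = 0.002067), and 1.61 and −0.51 by the second probe, a difference of −2.12 (adjusted p = 0.0001489). Sqle followed with 0.82 in batch 1 and −0.13 in batch 2, a difference of −0.96 (adjusted p = 0.0235), and its second probe with 1.75 and 0.20, a difference of −1.55 (adjusted p = 0.007017). The dimmer Cyp51 probe gave 1.16 and −0.10, a difference of −1.27 (adjusted p = 0.003574), while the brighter one gave 0.42 and −0.18 (adjusted p = 0.1707). Fdps gave 0.43 and 0.01 (adjusted p = 0.2875), and Srebf2 gave 0.62 and 0.71 (adjusted p = 0.9024). The untreated arrays themselves lay apart in these genes: Insig1, Sqle and Cyp51 were lower in untreated arrays of batch 1 than of batch 2 by each kept probe, and Fdps was higher by both, differences that were not tested.

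The differences for IL-1α against untreated of both Insig1 probes, the dimmer Cyp51 probe and the dimmer Sqle probe (ILMN_2600348) kept their calls without any 1 array. That of the brightest Sqle probe did not, with adjusted p-values of 0.05353 and 0.05733 without untreated replicate 1 or 2 of batch 1, 0.07859 and 0.1042 without IL-1α replicate 1 or 2 of batch 1, and 0.1141 without IL-1α replicate 2 of batch 2. Between retinoic acid and IL-1α, the effect was larger in batch 2 for Insig1 by 1.40 (adjusted p = 0.006464) and 1.36 (adjusted p = 0.00224) for its probes, for Sqle by 0.75 (adjusted p = 0.04673) and 1.21 (adjusted p = 0.01446), and for the dimmer Cyp51 probe by 0.91 (adjusted p = 0.01334). These calls held without any 1 array for both Insig1 probes. That of the brightest Sqle probe was lost in 9 of 12 such fits (adjusted p between 0.05291 and 0.2019), and without the filter (adjusted p = 0.06791), and held without either untreated array or IL-1α replicate 1 of batch 2. That of the dimmer Sqle probe was lost without replicate 1 of IL-1α or retinoic acid in batch 1, and without retinoic acid replicate 1 or IL-1α replicate 2 of batch 2 (adjusted p between 0.06662 and 0.08372), and without the filter (adjusted p = 0.07519). That of the dimmer Cyp51 probe was lost without retinoic acid replicate 1 or IL-1α replicate 2 of batch 1, and without replicate 2 of IL-1α or retinoic acid in batch 2 (adjusted p between 0.05025 and 0.07884). For the 12 tested other enzymes of synthesis, the difference between batches for IL-1α against untreated had adjusted p-values of 0.2107 (Mvd) or more in limma. Detected probes were fewer in batch 1. The summed level of the macrophage markers went opposite ways with IL-1α, at 8683 and 8757 against 7241 and 7513 in untreated arrays of batch 1, and at 5088 and 5550 against 6164 and 6838 in those of batch 2. Single tested markers mostly did not turn, as the means of Cd68 and Cd14 were higher with IL-1α in both batches. Those of Lyzs, Mrc1, C1qa, C1qb, Emr1 and Tyrobp were lower in both, and only Csf1r, detected on 4 of 12 arrays, turned. A list of 6 erythroid markers summed to 34061 and 32046 with IL-1α against 23170 and 21656 in untreated arrays of batch 1. In batch 2 it summed to 24829 and 28570 against 27769 and 27293. Of its 4 tested genes, 0 passed with IL-1α over both batches. The part that any of these plays in the differences between batches was not tested.

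**Figure D1:**
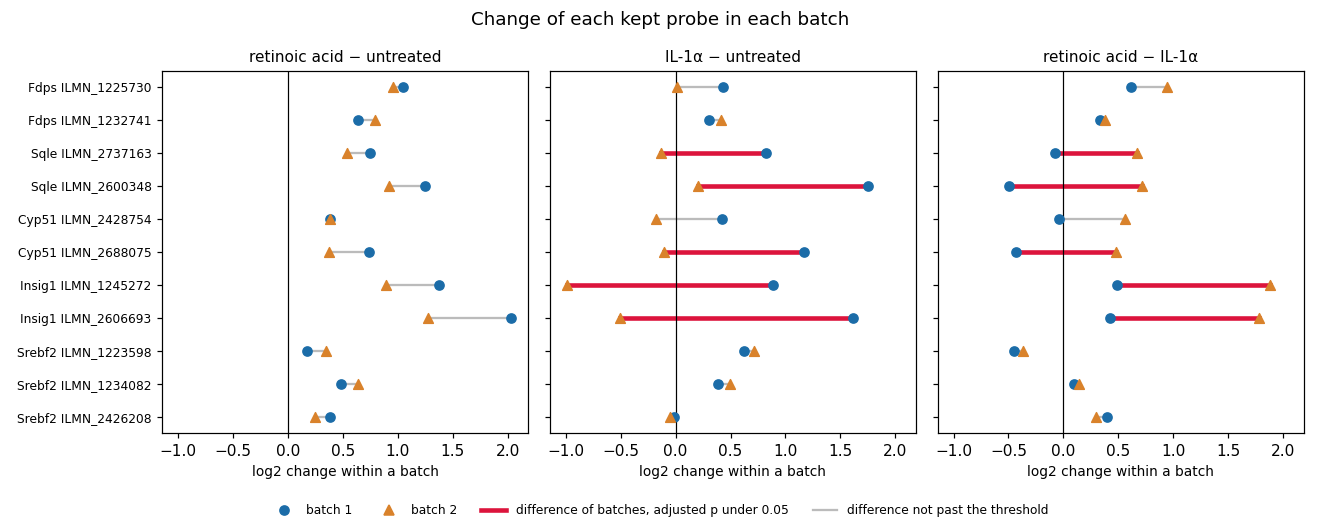
Log2 change within each batch (x axis) of the 11 kept probes (y axis) for retinoic acid against untreated, IL-1α against untreated and retinoic acid against IL-1α, from means of 2 arrays. Circles are batch 1, triangles are batch 2, and a thick red line marks a difference between batches that passed an adjusted p of 0.05. All points of the first panel are above 0, and red lines appear in the other 2 panels for Insig1, Sqle and the dimmer Cyp51 probe.

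The members were also set beside one another over the 12 arrays, after the mean of each batch was removed. These correlations describe arrays that share treatments, and carry no test. Probes of the same gene correlated at 0.92 for Insig1, 0.87 for Sqle, 0.86 for Fdps and 0.68 for Cyp51, and at 0.41, −0.47 and 0.52 for the 3 pairs of Srebf2. Between genes, the dimmer Sqle and Cyp51 probes correlated at 0.94 and the second Insig1 probe with the brightest Sqle probe at 0.93. With the mean profile of the 5 brightest probes, Sqle correlated at 0.95, Fdps at 0.90, Insig1 at 0.85, Cyp51 at 0.82 and Srebf2 at 0.33. Each of these genes is part of that mean.

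The genes whose pattern was most like this mean profile, over 12 arrays and all kept probes of other genes, were LOC676974 (r = 0.98), Ptpru (r = 0.98), Pml (r = 0.97), Dusp4 (r = 0.97), LOC381607 (r = 0.97), Myh10 (r = 0.96), LOC631204 (r = 0.96) and Arl5a (r = 0.96). Each had its highest change with retinoic acid and a smaller one with IL-1α, as for Ptpru, a receptor tyrosine phosphatase, with 0.74 and 0.37, and Dusp4, a phosphatase of MAP kinases, with 2.67 and 1.07. No gene of the sterol lists was among these 8.

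The other enzymes of the pathway were more divided. Of 16 listed, 15 had a probe under their symbol and 12 were tested. With retinoic acid 4 of 12 rose and 0 fell, and the median change was 0.33. With IL-1α 2 rose and 3 fell, and the median change was −0.11. Between retinoic acid and IL-1α 4 were higher and 0 lower. Of all kept probes, 18.2% rose and 17.1% fell with retinoic acid, and 15.2% rose and 14.1% fell with IL-1α. Between the treatments 15.2% of them were called higher and 15.8% lower. The list was drawn up with earlier results of these data known.

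Early in the pathway, Mvd, which makes isopentenyl diphosphate from mevalonate diphosphate, rose with retinoic acid by 1.07 ± 0.13 (adjusted p = 2.546e-05) and with IL-1α by 0.57 ± 0.13 (adjusted p = 0.004743). Acat2, which joins acetyl-CoA units at the head of the route, gave 0.32 with retinoic acid (adjusted p = 0.0612). With retinoic acid the early steps were thus called in 1 of the 3 tested genes described before Fdps, as Pmvk gave −0.20 (adjusted p = 0.2174). Of all kept probes, 35.4% were called in either direction with retinoic acid.

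Past lanosterol, retinoic acid was followed by rises of Hsd17b7, a sterol ketoreductase, by 1.24 ± 0.11 (adjusted p = 1.23e-06), of Tm7sf2, a sterol reductase, by 1.29 ± 0.23 (adjusted p = 0.0006947), and of Nsdhl, a sterol dehydrogenase, by 0.49 ± 0.12 (adjusted p = 0.005918). Nsdhl fell with IL-1α by 0.45 (adjusted p = 0.01347). Lss, which closes the sterol rings, fell with IL-1α by 0.45 (adjusted p = 0.04444), and Lbr, a lamin receptor that also reduces sterols, fell by 0.44 (adjusted p = 0.03559). Sc4mol, the array's name for Msmo1 and a sterol oxidase that acts after Cyp51, rose with IL-1α by 0.61 (adjusted p = 0.006654). Ebp, Sc5d and Dhcr7, which complete the ring and its double bonds, passed in neither treatment, and Sc5d was nearest with retinoic acid at 0.40 (adjusted p = 0.05036).

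Tm7sf2 differed between the batches in its response to retinoic acid, which no member probe was called to do. The rise of Tm7sf2 with retinoic acid was 1.79 in batch 1 and 0.79 in batch 2 (adjusted p of the difference = 0.0121).

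**Figure D2:**
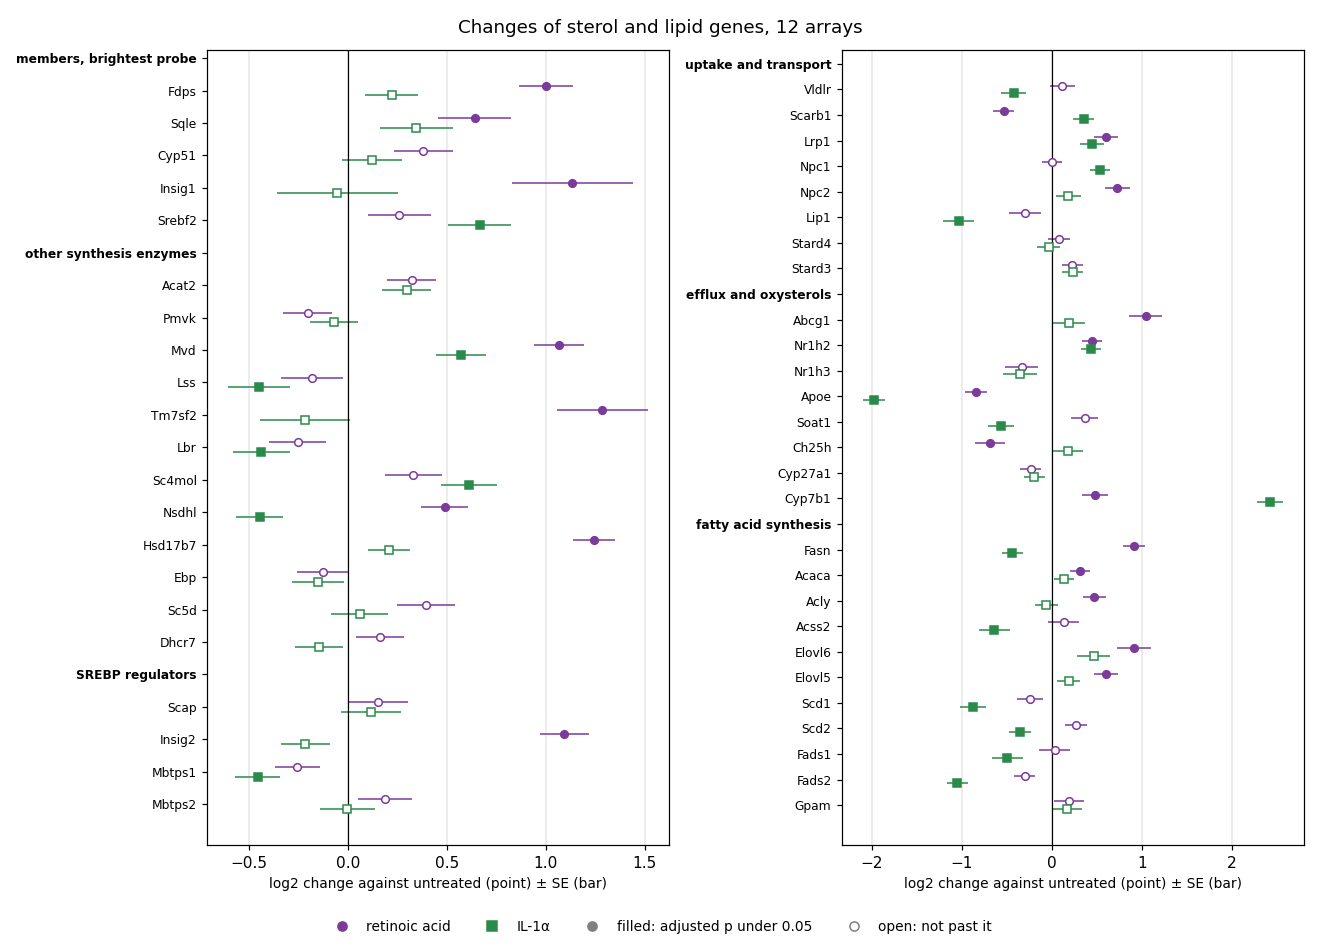
Log2 change against untreated (x axis, point) with its SE (bar) for retinoic acid (circles) and IL-1α (squares), for members and listed genes by their brightest kept probe (y axis), from the fit of 12 arrays. Filled symbols passed an adjusted p of 0.05. With retinoic acid the filled circles of the members, of the other enzymes and of fatty acid synthesis are all to the right of 0, while the filled squares of IL-1α lie on both sides among the enzymes and to the left for fatty acid synthesis.

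Among the regulators of SREBP, 4 of 5 were tested. Insig2, the second retention protein of SREBP, rose with retinoic acid by 1.09 ± 0.12 (adjusted p = 1.5e-05), with 1.05 in batch 1 and 1.14 in batch 2, and its change with IL-1α was −0.22 (adjusted p = 0.2072). Mbtps1, which makes the first cut that frees SREBP, fell with IL-1α by 0.46 (adjusted p = 0.00954). Scap and Mbtps2 passed in neither, and the probe of Srebf1, the gene of the related SREBP1, was not kept.

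Of 10 genes of cholesterol uptake and transport inside the cell, 8 were tested. With retinoic acid 2 rose and 1 fell, where 18.2% of all kept probes were called higher and 17.1% lower. Npc2, which hands cholesterol out of the lysosome, rose by 0.73 ± 0.14 (adjusted p = 0.001065) and Lrp1, a broad lipoprotein receptor, by 0.60 ± 0.13 (adjusted p = 0.002889). Scarb1, the receptor of HDL, fell with retinoic acid by 0.54 (adjusted p = 0.003043) and rose with IL-1α by 0.35 (adjusted p = 0.03842).

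With IL-1α 3 uptake genes rose and 2 fell, where 15.2% of all kept probes were called higher and 14.1% lower. Npc1, the lysosomal partner of Npc2, rose by 0.53 (adjusted p = 0.003241) and Lrp1 by 0.45 (adjusted p = 0.02127). Lip1, the array's name for Lipa and the acid lipase that frees cholesterol from its esters, fell by 1.04 ± 0.17 (adjusted p = 0.0007595) and Vldlr, a receptor of triglyceride-rich particles, by 0.43 (adjusted p = 0.03578).

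Among 8 tested genes of efflux and oxysterols, 3 rose and 2 fell with retinoic acid and 2 rose and 2 fell with IL-1α. Of all kept probes, 18.2% rose and 17.1% fell with retinoic acid, and 15.2% rose and 14.1% fell with IL-1α. Abcg1, an exporter of cholesterol, rose with retinoic acid by 1.04 ± 0.18 (adjusted p = 0.0006008). Cyp7b1, which breaks down oxysterols, rose with IL-1α by 2.42 ± 0.14 (adjusted p = 1.576e-07) and with retinoic acid by 0.48 (adjusted p = 0.02047). Apoe, the apolipoprotein that carries exported lipid, fell with IL-1α by 1.98 ± 0.12 (adjusted p = 1.674e-07) and with retinoic acid by 0.84 (adjusted p = 0.0001188). Ch25h, which makes an oxysterol that holds back SREBP, fell with retinoic acid by 0.69 (adjusted p = 0.005703), but was detected on only 2 of 4 arrays of each of these groups, with batch 1 means of 5.05 and 4.66 below the lowest detected signals of those arrays and a change of −0.99 in batch 2. Soat1, which esterifies cholesterol for storage, fell with IL-1α by 0.57 (adjusted p = 0.0115).

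Fatty acid synthesis, which the related factor SREBP1 governs, was split by treatment. Of 11 tested genes 5 rose and 0 fell with retinoic acid, and 0 rose and 6 fell with IL-1α. Of all kept probes, 18.2% rose and 17.1% fell with retinoic acid, and 15.2% rose and 14.1% fell with IL-1α. Fasn, the fatty acid synthase, rose with retinoic acid by 0.91 ± 0.12 (adjusted p = 6.133e-05) and fell with IL-1α by 0.44 (adjusted p = 0.01545). Elovl6, which lengthens palmitate, rose with retinoic acid by 0.91 (adjusted p = 0.001897). With IL-1α, Fads2, a desaturase, fell by 1.05 ± 0.12 (adjusted p = 3.209e-05), Scd1, which makes oleate, by 0.88 (adjusted p = 0.0005784) and Acss2, which makes acetyl-CoA from acetate, by 0.64 (adjusted p = 0.01342). Adipocyte markers fell along with this group under IL-1α and mostly fell, against it, under retinoic acid. Of 4 tested, 4 fell with IL-1α, 3 fell and 1 rose with retinoic acid, and the summed level of the list ran from 2237 to 2876 in untreated, 513 to 949 in IL-1α and 1203 to 1681 in retinoic acid arrays, and their part in the falls with IL-1α was not tested.

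Of the 39 calls of listed genes of these groups against untreated, 26 were also made in every fit without 1 array and 25 under all of 3 other scalings, and 0 turned direction in any of these, which were alternatives chosen after the data were seen. The calls lost without some array were, with IL-1α, those of Lss, Lbr, Nsdhl, Acss2, Fads1, Fasn, Scd2, Vldlr, Scarb1, Lrp1 and Nr1h2, and with retinoic acid those of Cyp7b1 and Acaca. Calls kept without any 1 array but lost under a scaling were those of Soat1 and Mbtps1 with IL-1α and of Scarb1 with retinoic acid. With median scaling IL-1α left 0 of the enzymes and 3 of the fatty acid genes called lower, and 1 uptake gene called in each direction.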

How the data were processed

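RNA of 12 explant samples was hybridised to Illumina Sentrix Mouse 1.1 bead arrays. The authors deposited probe intensity values on a linear scale, not background-corrected and not normalized. Beside each intensity the deposited table gives a detection score, a fraction from 0 to 1 that rises with intensity, and 1 minus this score was taken as the detection p. The software that made the table is not given in the sources used here. In R 4.3.3 with limma 3.58.1, neqc, which the study's methods name, corrected the background and normalized by quantiles. It took log2 after an offset of 16, a value that the paper does not give. This offset draws the changes of dim probes towards 0. Probes detected at p under 0.05 on at least 4 of 12 arrays were kept, 18200 in all. The linear model held treatment terms and a 4-level factor of batch and replicate, as in the study's methods, with Benjamini-Hochberg adjustment over all kept probes at 0.05. A second model of treatment by batch tested differences between batches. A gene is given by its kept probe of highest mean unless a probe is named. Named genes are all member probes, genes of the synthesis, uptake and regulator lists called in any comparison, up to 5 each of the efflux and fatty acid lists with the largest called changes against untreated, and the 8 genes of most similar profile. Other listed genes were named after their values were seen. The members and lists were chosen with earlier results of these data known. Some genes of the synthesis and uptake lists are not reported here and stand in no count of a list. Gene symbols are those of the array. The number of arrays limits the precision. The scripts were tested on simulated data. The alternatives changed the block, batch term, background, scaling, offset, filter, probe and each array in turn.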

Additional observations from a re-analysis of the deposited data

Results flagged for a closer look

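The effect of a treatment differed between the batches, by the test of the difference itself (limma, batch 2 minus batch 1, log2), for these probes of the members. For IL-1α against untreated the differences were −1.55 for Sqle ILMN_2600348, −0.96 for Sqle ILMN_2737163, −1.27 for Cyp51 ILMN_2688075, −1.88 for Insig1 ILMN_1245272 and −2.12 for Insig1 ILMN_2606693. For retinoic acid against IL-1α they were 1.21, 0.75, 0.91, 1.40 and 1.36 in the same order. Among the listed genes, Tm7sf2 differed by −0.999 for retinoic acid against untreated and by −1.41 against IL-1α. For retinoic acid against IL-1α, Abcg1 differed by 0.96 and Acss2 by −0.87. Of 33 groups of 4 arrays, 0 held an array far from the others. This check set the gap between an outermost array and its neighbour against the range of the group, which pooled both batches. A difference between the batches widens that range, so the check says little about single arrays.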

How the results depend on the processing

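Of 883 alternative values of single probes, 766 kept direction and side of the threshold, 77 lost a call, 27 gained one and 13 turned direction, the last of values whose adjusted p missed the threshold. Counts of members or enzymes are not part of these 883 values. With no batch term, members called were 0 in all 3 comparisons, and other enzymes 2 for retinoic acid and 0 for IL-1α against untreated and 2 between treatments. With no filter, members called were 1 for retinoic acid against untreated and 1 against IL-1α, and 1 member differed between batches for retinoic acid against IL-1α. The latter count was also 1 with a replicate block in the treatment by batch model, an alternative chosen after seeing the data. With median scaling, 2 other enzymes were called for IL-1α, Srebf2 ILMN_2426208 changed by 0.0379 with IL-1α, and the median change of all kept probes with retinoic acid was 0.14 in place of 0.02. With the dimmest kept probe of each gene, 3 members were called for IL-1α.

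Without 1 array, members called ran from 1 to 4 for retinoic acid and from 1 to 2 for IL-1α against untreated, the 1 being without either untreated array of batch 1 and the 2 without IL-1α replicate 2 of batch 2. Other enzymes called for IL-1α ran from 2 to 5, and members that differed between batches from 1 to 2 for IL-1α against untreated and from 1 to 2 for retinoic acid against IL-1α. The uncalled changes with IL-1α ran from −0.40 to 0.32 for Insig1 ILMN_1245272, from −0.18 to 0.15 for Srebf2 ILMN_2426208 and from −0.0262 to 0.26 for Cyp51 ILMN_2428754, and those of retinoic acid against IL-1α from −0.14 to 0.44 for Sqle ILMN_2600348 and from −0.19 to 0.21 for Cyp51 ILMN_2688075.

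The replicate block follows the study's methods. Same-numbered arrays did not deviate together in every pair of treatments, since differences of replicate 1 and 2 correlated at 0.0027 to 0.062 in batch 1, and in batch 2 at 0.39 for IL-1α and retinoic acid, 0.18 for untreated and IL-1α and −0.11 for untreated and retinoic acid. With no replicate block, 3 members were called for retinoic acid against untreated, 1 for IL-1α and 3 between the treatments, the third being Srebf2, lower after retinoic acid by −0.41 (adjusted p = 0.04701).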
